A study of Mus musculus with 6 samples.

Results

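The heat shock proteins, the cytosolic chaperonin, the mitochondrial chaperones and the genes of the unfolded protein response were followed in mouse ovarian secondary follicles at 2 ages. The group was given as a list of 47 gene symbols, and a member was counted as measured when the array carried a probe set annotated to that symbol alone. This held for 45 of the 47 genes, among 18193 genes tested on the array, and these 45 had 128 probe sets. Of the measured members, 24 act in the cytosol (heat shock factors included), 3 in mitochondria, and 18 in the endoplasmic reticulum (ER) or in its unfolded protein response (UPR). Hsp90ab1 and Hsf1 were not analysed here. The rule that finds their probe sets uses symbols alone and no expression value.

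Total RNA came from female C57BL/6J mice kept free of specific pathogens, 9 weeks old in the young group and 32 weeks old in the old group, with 3 samples in each group and no treatment or transgene in either. Secondary follicles, which hold a growing oocyte within several layers of granulosa cells, had been dissected mechanically from the ovaries with needles. RNA was hybridized to 6 Affymetrix 3' expression arrays. Each probe set of this array reads a short stretch near the 3' end of a messenger RNA, and values are log2 of the intensity that the authors obtained with the robust multiarray average (RMA). The comparison asks what changed in the follicle with ovarian aging, and the labels call the samples biological replicates. How many mice went into a sample is not stated, so a p-value here covers the spread over these 6 arrays, which may be technical in part.

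Chaperones bind unfolded or newly made proteins and help them to fold. HSP70 proteins do so in cycles of ATP hydrolysis that J-domain proteins start and HSP110 proteins reset, HSP90 takes over late folding steps of kinases and steroid receptors, small heat shock proteins hold unfolded proteins without using ATP, and the ring-shaped chaperonin CCT folds actin and tubulin. Heat shock factors switch these genes on by binding repeats of the letters GAA in their promoters. The ER has chaperones of its own, which fold secreted proteins such as the zona pellucida glycoproteins and the peptide hormones of the follicle, and when unfolded proteins build up there the sensors Ern1 (IRE1), Eif2ak3 (PERK) and Atf6 start the UPR. IRE1 then splices the Xbp1 messenger RNA, ATF6 and XBP1 raise the ER chaperones, and PERK signals through Atf4 to Ddit3 (CHOP), a factor linked to cell death.

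Promoters are shown with letters tied to the 2 stress programmes that can be read in the DNA. RefSeq sequences of the mouse build GRCm38.p6 covered 39 of the 45 measured members, and 250 bases before each start were searched on both strands. The heat shock element of 2 units, GAANNTTC or TTCNNGAA, was found for 12 of the 39 members and in 12.84% of all 32851 promoters. Here and below, a member counted if any of its promoters matched (48 promoters for the 39 members), while the share over all is per promoter. Among the 12 was Eif2ak3, a sensor of the UPR, so this element did not mark the heat shock genes alone. The form with 3 units, which contains the form with 2, was found for Dnajb6, Hspd1 and Hspe1 and in 0.466% of all promoters. Capitals mark the elements in the promoters of small heat shock protein Hspb1, J-domain protein Dnajb6, HSP110 protein Hsph1, inducible HSP70 gene Hspa1b and the mitochondrial pair Hspe1 and Hspd1, which are transcribed away from a shared promoter. Hspa1a has the same letters as Hspa1b in the stretch shown, and the promoters of these near-identical genes match at 247 of 250 bases.
Hspb1, chr5:135887772-135887859, plus strand: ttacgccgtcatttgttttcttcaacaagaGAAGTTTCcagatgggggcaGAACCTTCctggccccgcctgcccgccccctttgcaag
Dnajb6, chr5:29735822-29735894, plus strand: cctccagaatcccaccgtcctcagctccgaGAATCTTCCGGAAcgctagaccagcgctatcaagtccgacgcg
Hsph1, chr5:149636337-149636399, minus strand: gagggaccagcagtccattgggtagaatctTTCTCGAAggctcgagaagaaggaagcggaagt
Hspa1b, chr17:34959305-34959372, minus strand: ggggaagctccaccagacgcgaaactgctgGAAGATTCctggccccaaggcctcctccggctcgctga
Hspe1, chr1:55088053-55088082, plus strand: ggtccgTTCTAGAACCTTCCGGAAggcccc

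The ER stress element, CCAAT followed after 9 bases by CCACG, is where ATF6 acts on the ER chaperone genes. It was found for 6 of the 39 members, all of them ER chaperones, and in 0.113% of all promoters. Capitals run from the first to the last base of each element, the 9 bases between its parts included, and the elements of Calr and the second element of Hsp90b1 read in the opposite direction. The UPR element TGACGTGG, which shares the letters CGTGG with the reverse of the ER stress element, was found for 0 members and in 0.563% of all promoters. The amino acid response element TGATGNAAT, a site of ATF4 and CHOP, was found for 0 members and in 0.816% of all promoters. A match describes these letters only.
Hspa5, chr2:34771995-34772073, plus strand: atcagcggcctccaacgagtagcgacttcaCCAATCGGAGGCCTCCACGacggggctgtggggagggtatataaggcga
Hsp90b1, chr10:86705503-86705686, minus strand: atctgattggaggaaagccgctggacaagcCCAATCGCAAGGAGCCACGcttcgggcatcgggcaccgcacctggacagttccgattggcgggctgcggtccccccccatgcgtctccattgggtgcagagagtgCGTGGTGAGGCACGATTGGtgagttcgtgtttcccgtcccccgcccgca
Pdia6, chr12:17266461-17266539, plus strand: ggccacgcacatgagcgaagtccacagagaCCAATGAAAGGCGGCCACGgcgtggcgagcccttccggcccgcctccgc
Calr, chr8:84847045-84847123, minus strand: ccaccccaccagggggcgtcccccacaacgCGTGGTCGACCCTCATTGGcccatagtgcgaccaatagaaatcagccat
Canx, chr11:50325770-50325848, minus strand: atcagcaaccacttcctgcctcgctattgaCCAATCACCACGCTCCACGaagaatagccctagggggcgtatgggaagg
Dnajc3, chr14:118937797-118937875, plus strand: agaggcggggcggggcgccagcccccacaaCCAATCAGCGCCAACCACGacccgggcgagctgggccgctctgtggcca

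The array medians lay between 4.93 and 4.95, and the median SD within the groups over all genes was 0.089. The upper quartiles were 7.20, 7.18 and 7.17 on the young arrays and 7.10, 7.14 and 7.11 on the old ones, lower on every old array. Defining markers of both follicle compartments were bright, with Gdf9 of the oocyte at 12.26 and Inha of granulosa cells at 12.82 in young follicles. Of 10 oocyte markers 8 were lower in old follicles, with a median log2 fold change of -0.27 and a mean level of 10.58 to 10.61 in young and 10.25 to 10.29 in old follicles. Of 8 granulosa markers 1 was higher and 1 lower, with a median of 0.0046. Macrophage markers were higher for 4 of 6 genes (mean level 4.99 to 5.04 in young and 5.73 to 5.87 in old follicles), and Star and Col1a1 were higher among 4 measured markers of theca and stroma (6.40 to 6.45 in young and 7.01 to 7.13 in old follicles). Control probe sets at both ends of the Gapdh transcript differed by 0.47 ± 0.014 (SD, n = 3) in young and 1.51 ± 0.0048 (SD, n = 3) in old follicles, 3' above 5', and those of beta-actin by 1.48 ± 0.033 and 2.53 ± 0.050. Neither pair of groups overlapped, and both gave p = 0.1 (exact permutation test, two-sided), which is the floor for 3 samples against 3. These values moved with age alongside the results that follow, and their part in those results was not tested. In whole follicles, fewer cells of a type and less RNA per cell cannot be told apart.

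Read at their brightest probe sets, Hspb1, Hspb8, Hsf2 and Ddit3 were upregulated in secondary follicles of the old mice, and Hspa8, Hsph1, Dnajb6, Dnajb9 and Hspd1 were downregulated, each by less than a fold of 2. For Hsf2 and Hspa8 another probe set passed in the opposite direction. With each gene read at the probe set brightest on average over the 6 arrays, 0 of 45 members passed a fold of at least 2 with an adjusted p of at most 0.05 in limma in either direction. Over all genes, 0.638% passed as higher and 0.126% as lower at that threshold. Whatever the fold, an adjusted p of 0.05 or less was reached by 4 members (8.89%) that were higher and 5 (11.1%) that were lower, against 10.1% and 13.3% of all genes, so neither share exceeded the background. With cyclic loess normalization the split was 6 higher and 4 lower. The 3 young and 3 old values did not overlap for 23 members (51.1%), 8 of them higher and 15 lower in old follicles, against 42.5% of all genes (18.9% higher and 23.7% lower). The median log2 fold change of the members, old minus young, was -0.023, with a range from -0.31 to 0.65, and the median over all genes was -0.0042. The members were brighter on average, with a mean level of 9.60 to 9.63 on the 6 arrays against 6.14 to 6.16 over all genes. Among the 11380 genes with a mean log2 of at least 5 the median was -0.047. The members' median of -0.023 was taken without that filter, so it cannot be set against this value. Under the same filter the cytosolic median was -0.076, the ER and UPR median -0.020 and the mitochondrial median -0.0030.

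Compartments were described by their medians and counts, and whether they differ was not tested. Cytosolic members had a median of -0.071, with 3 higher (12.5%), 3 lower (12.5%) and 18 that did not pass. Over all genes 10.1% were higher and 13.3% lower. Of the 24 cytosolic members, 11 had old values entirely below the young ones and 4 entirely above, against 23.7% and 18.9% of all genes. The 18 members of the ER and the UPR had a median of -0.013, with 1 higher (5.56%), 1 lower (5.56%) and 16 that did not pass. Among these 18, 3 had old values entirely below the young ones and 4 entirely above. The 3 mitochondrial members had a median of -0.0030, with 1 lower, whose old values lay entirely below the young ones. Averaged over the cytosolic members, the log2 level was 9.59, 9.57 and 9.56 in young follicles and 9.57, 9.59 and 9.56 in old follicles, which overlapped. Averaged over the ER and UPR members it was 9.46, 9.48 and 9.50 in young and 9.51, 9.47 and 9.48 in old follicles, which overlapped too. No test was run on these averages, since members are not replicates. The plot of fold changes by role gives each member.

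**Figure D1:**
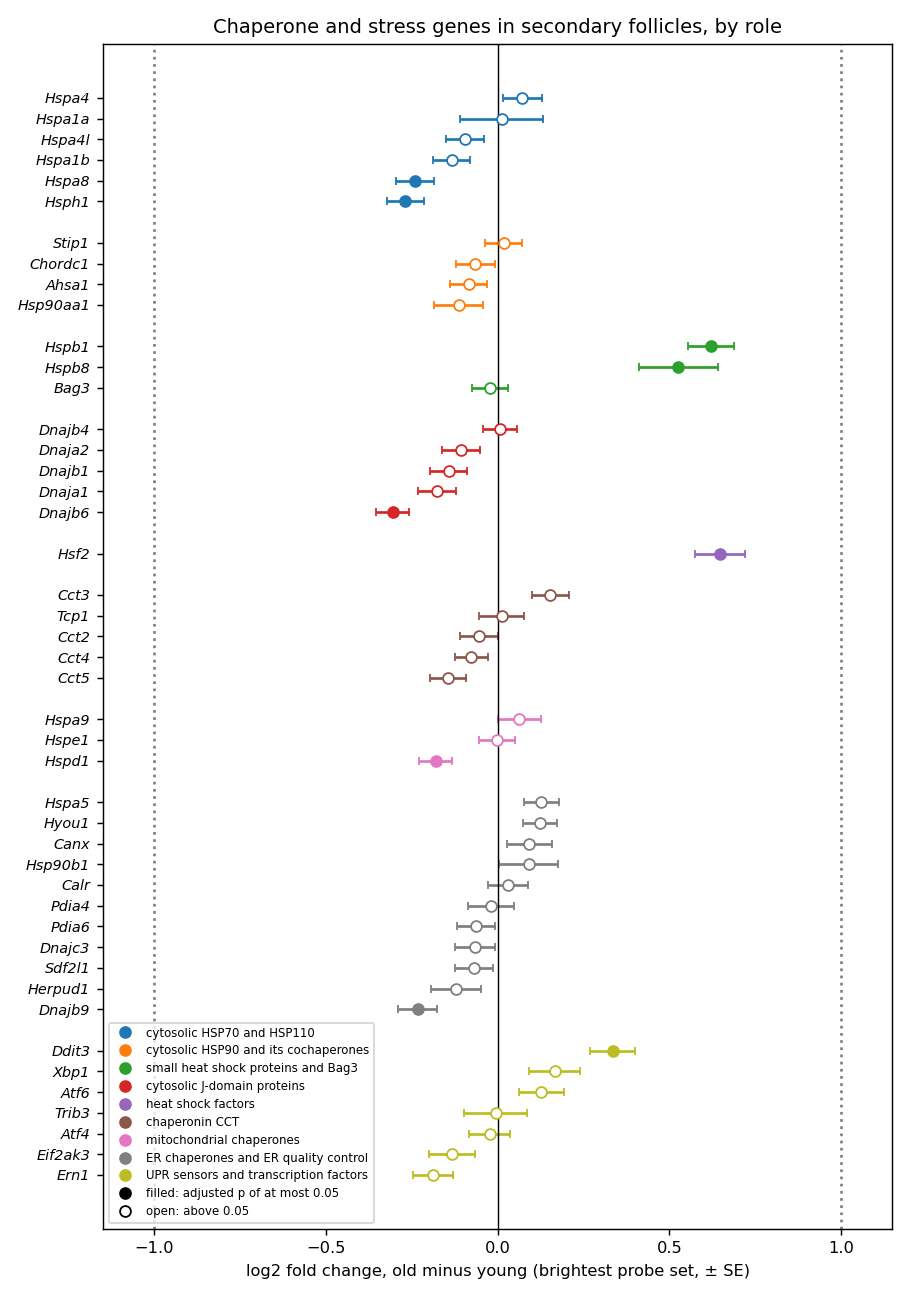
Log2 fold change, old minus young, of the 45 measured members at their brightest probe set (horizontal axis; bars are the SE from limma), grouped by role, with filled points past an adjusted p of 0.05 and dotted lines at a fold of 2. Hspb1, Hspb8 and Hsf2 lie to the right at 0.53 to 0.65, most J-domain and HSP70 genes lie left of 0, and no point reaches a dotted line.

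Both small heat shock proteins among the members, Hspb1 and Hspb8, rose in old follicles at their brightest probe sets, while of the related genes outside the list Cryab was higher (0.56, adjusted p = 0.016), Hspb7 lower (-0.41, adjusted p = 0.034) and Hspb6 did not pass (-0.073). Hspb1 (HSP27), which binds unfolded proteins and actin filaments, read 7.46, 7.44 and 7.50 in young follicles and 7.97, 8.18 and 8.11 in old follicles. It was higher by 0.62 ± 0.066 on the log2 scale (SE, adjusted p = 0.0011 in limma), and every old sample lay above every young one. Its dimmer probe set, whose suffix (_x_at) warns that probes may be shared with other transcripts, rose likewise, from 6.47, 6.47 and 6.51 to 7.10, 7.18 and 7.15. Hspb8 (HSP22), which works with Bag3 to pass misfolded proteins to autophagy, read 5.78, 5.59 and 5.32 in young follicles and 6.17, 6.10 and 6.00 in old follicles. The groups did not overlap, and Hspb8 was higher by 0.53 ± 0.12 (SE, adjusted p = 0.017). It lost the call without old replicate 1 (0.49, adjusted p = 0.054), and its dimmest probe set stood at -0.012. Its partner Bag3 did not pass, at 7.89, 7.84 and 7.80 in young and 7.85, 7.83 and 7.79 in old follicles, which overlapped. Hspb1 has 2 heat shock elements in the promoter printed above. In the same 3 old samples 4 of 6 macrophage markers were higher, as were Star and Col1a1 among 4 measured markers of theca and stroma, while Dcn and Cyp17a1 did not pass.

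Hsf2, the heat shock factor that also acts in the development of germ cells, was read by 2 dim probe sets that went opposite ways. At the brighter one, below the array medians throughout, it read 4.03, 3.86 and 3.82 in young follicles and 4.48, 4.62 and 4.55 in old follicles, higher by 0.65 ± 0.073 (SE, adjusted p = 0.0014). At the dimmer one it read 3.82, 4.22 and 4.24 in young and 3.02, 3.56 and 3.36 in old follicles, lower by 0.78 (log2 fold change -0.78, adjusted p = 0.012). Which probe set reports the messenger RNA was not tested, so no direction is given for Hsf2. By the mean of the 3 young arrays the second probe set was the brighter.

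The HSP70 and HSP110 genes had a median log2 fold change of -0.12. Of these, 2 of 6 were lower and 0 higher, against 13.3% lower and 10.1% higher over all genes. Hsph1, an HSP110 that exchanges nucleotides on HSP70, read 10.88, 10.84 and 10.85 in young follicles and 10.63, 10.62 and 10.52 in old follicles, which did not overlap. The difference was -0.27 ± 0.053 (SE, adjusted p = 0.012). Hspa8, the constitutive HSP70 (HSC70) that also uncoats clathrin vesicles, read 12.80, 12.70 and 12.71 in young and 12.49, 12.53 and 12.46 in old follicles, a difference of -0.24 ± 0.055 (SE, adjusted p = 0.019). The call on Hspa8 was lost without old replicate 1 (adjusted p = 0.054) and without old replicate 3 (adjusted p = 0.071), and significance analysis of microarrays (SAM), run as an alternative, did not make it. In the same samples 8 of 10 oocyte markers were lower. Of the stress-induced genes, Hspa1b read 8.02, 7.89 and 7.96 in young and 7.81, 7.83 and 7.83 in old follicles and did not pass (-0.13, adjusted p = 0.12). Hspa1a did not differ by more than its spread, with 5.37 to 5.73 in young and 5.42 to 5.74 in old follicles. How far the probe sets tell the near-identical Hspa1a and Hspa1b apart was not analysed here. Hspa4l, an HSP110 relative abundant in male germ cells, read 7.53, 7.56 and 7.64 in young and 7.43, 7.52 and 7.49 in old follicles (-0.10, not passed). Hspa4, an HSP110 relative too, overlapped at its brightest probe set, with 10.57, 10.50 and 10.50 in young and 10.64, 10.63 and 10.52 in old follicles.

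The 5 cytosolic J-domain members, whose proteins start the HSP70 cycle, had a median of -0.14, and only Dnajb6 passed. Old values lay entirely below the young ones for 4 of 5, against 23.7% of all genes. Outside the list, the cytosolic J-domain genes Dnajb2 (-0.13), Dnajb5 (-0.023) and Dnajc7 (0.012) overlapped and did not pass. Dnajb6, which keeps aggregation-prone proteins in solution, read 10.71, 10.72 and 10.74 in young follicles and 10.44, 10.43 and 10.38 in old follicles. It was lower by 0.31 on the log2 scale (log2 fold change -0.31 ± 0.049, SE, adjusted p = 0.0050), and it carries the heat shock element of 3 units printed above. Dnaja1, a type I J-domain protein of the cytosol, read 10.95, 10.87 and 10.95 in old follicles against 11.04 or more in every young sample and just missed the threshold (-0.18, adjusted p = 0.057). Dnajb1 (HSP40), induced by heat, read 10.70, 10.65 and 10.57 in young follicles and 10.49 to 10.51 in old follicles (-0.14, adjusted p = 0.097). Dnaja2 read 11.03, 11.13 and 11.16 in young and 11.00, 10.99 and 11.02 in old follicles (-0.11, adjusted p = 0.21). Dnajb4 stood at 0.0068. Averaged over the 5 genes, the level was 10.62, 10.64 and 10.61 in young follicles and 10.48, 10.47 and 10.48 in old follicles.

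HSP90 and its cochaperones did not pass at their brightest probe sets, with a median of -0.075. Hsp90aa1, the inducible cytosolic HSP90, read 11.62, 11.77 and 11.69 in young follicles and 11.66, 11.47 and 11.60 in old follicles, which overlapped. Ahsa1, which activates the ATPase of HSP90, read 10.12 to 10.21 in young and 10.05 to 10.11 in old follicles (-0.085, adjusted p = 0.29). Chordc1, an HSP90 cochaperone, read 9.49, 9.59 and 9.58 in young and 9.45, 9.54 and 9.48 in old follicles. Stip1 (HOP), which bridges HSP70 and HSP90, stood at 0.017. The chaperonin CCT did not pass at any of 5 measured subunits either, with a median of -0.054. Among these, Cct3 was higher in every old sample, with 11.41, 11.43 and 11.41 against 11.64, 11.55 and 11.52 (0.15, adjusted p = 0.077). Cct5 went the other way, with 11.25, 11.23 and 11.24 in young and 11.13, 11.12 and 11.03 in old follicles (-0.15, adjusted p = 0.090). Cct4 (-0.076), Cct2 (-0.054) and Tcp1 (0.011) lay closer to 0.

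In mitochondria, Hspd1 (HSP60), the barrel of the mitochondrial chaperonin, was lower and its lid Hspe1 (HSP10) did not pass, although they share the promoter printed above. Hspd1 read 11.42, 11.41 and 11.40 in young follicles and 11.23, 11.26 and 11.21 in old follicles, a difference of -0.18 ± 0.048 (SE, adjusted p = 0.034). The call was lost without young replicates 1, 2 and 3 (adjusted p = 0.065, 0.11 and 0.084), without old replicates 1 and 3 (0.086 and 0.11) and with the replicate number as a block (0.082), and SAM did not make it. Hspe1 read 11.14, 11.04 and 11.06 in young and 11.09, 11.09 and 11.06 in old follicles, which overlapped (-0.0030). Whether Hspd1 and Hspe1 differ from each other was not tested. Hspa9 (mortalin), the mitochondrial HSP70, read 9.72, 9.61 and 9.63 in young and 9.81, 9.66 and 9.68 in old follicles and did not pass (0.063).

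**Figure D2:**
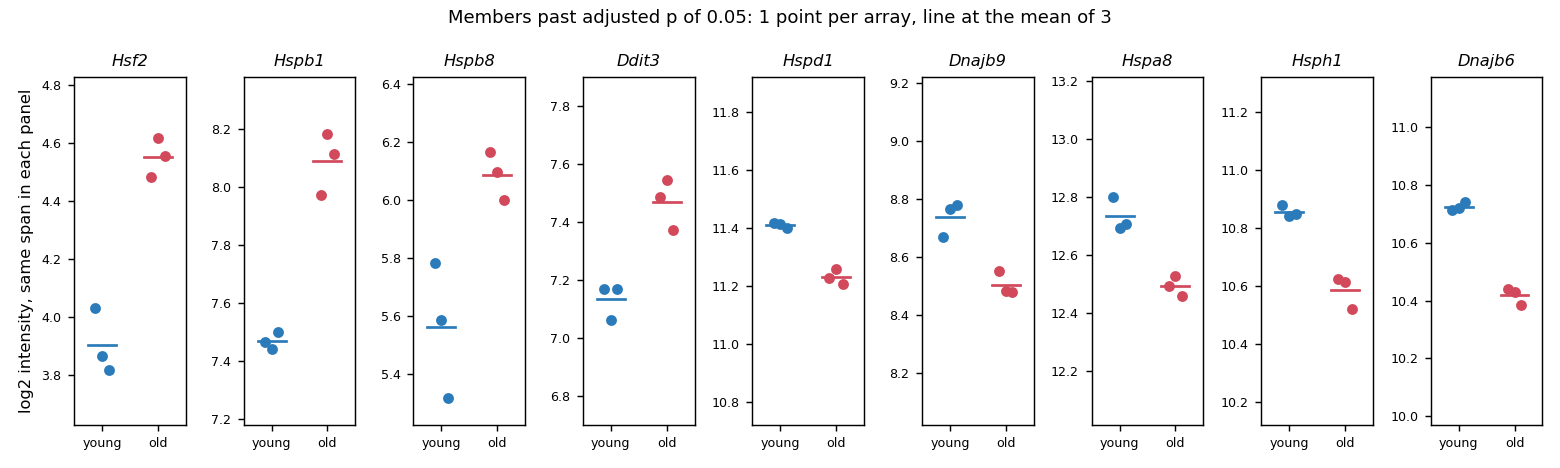
Log2 intensity of the 9 members past an adjusted p of 0.05 at their brightest probe set (vertical axis, the same span in every panel; 1 point per array, horizontal lines at the means of 3). In each panel the young and the old points do not overlap, with steps from 0.65 for Hsf2 down to -0.31 for Dnajb6.

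Of the ER chaperones and quality control genes, 10 of 11 did not pass, with a median log2 fold change of -0.020. Dnajb9 (ERdj4), a J-domain partner of BiP that is induced in the UPR, was the exception, at 8.67, 8.76 and 8.78 in young follicles and 8.55, 8.48 and 8.48 in old follicles. It was lower by 0.23 (log2 fold change -0.23 ± 0.056, SE, adjusted p = 0.024), with adjusted p of 0.085 and 0.078 without young replicates 2 and 3 and of 0.057 and 0.080 without old replicates 2 and 3. The call was lost too with quantile (-0.16, adjusted p = 0.098) and cyclic loess normalization (-0.17, adjusted p = 0.086) and with the replicate number as a block (adjusted p = 0.063), and SAM did not make it. Hspa5 (BiP), the HSP70 of the ER and a standard readout of the UPR, read 12.61, 12.63 and 12.65 in young and 12.80, 12.71 and 12.77 in old follicles, higher in every old sample without passing (0.13, adjusted p = 0.12). Hyou1, the HSP110 of the ER, had the same pattern, with 9.21, 9.26 and 9.25 against 9.39, 9.33 and 9.37 (0.12, adjusted p = 0.12). Herpud1, which serves ER-associated degradation, read 8.12, 8.26 and 8.17 in young and 8.05, 8.18 and 7.96 in old follicles, which overlapped. Calr and Canx, the lectin chaperones of glycoproteins, stood at 0.030 and 0.092, Hsp90b1 (GRP94) at 0.090, the disulfide isomerases Pdia4 and Pdia6 at -0.020 and -0.063, Dnajc3, which restrains PERK, at -0.067 and Sdf2l1, a BiP-binding protein, at -0.070. The 6 genes with the ER stress element printed above had a median of 0.060, from -0.067 to 0.13, and 0 of them passed. The 12 genes with a heat shock element of 2 units had a median of -0.13, from -0.31 to 0.62, with 1 higher, 3 lower and 8 that did not pass. Over all genes 10.1% were higher and 13.3% lower, and whether either element goes with a call was not tested.

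Among the sensors and transcription factors of the UPR, Ddit3 alone passed, and the group's median was -0.0059. Ddit3 read 7.17, 7.06 and 7.17 in young follicles and 7.49, 7.54 and 7.37 in old follicles, higher by 0.33 ± 0.065 (SE, adjusted p = 0.011), with no overlap. Its dimmer probe set overlapped, with means of 4.88 in young and 4.93 in old follicles (0.051, adjusted p = 0.62 in limma). Atf4, the factor upstream of Ddit3 in the PERK branch, overlapped at its brightest probe set (-0.023, adjusted p = 0.81), and Trib3, a target of both, read 4.91, 4.83 and 5.02 in young and 5.05, 4.75 and 4.95 in old follicles. The sensor Eif2ak3 stood at -0.13 (adjusted p = 0.19), with 8.23, 8.21 and 8.36 in young follicles and 8.04 to 8.19 in old follicles. Ern1, the sensor that splices Xbp1, lay at 11.11 to 11.24 in young and 10.92 to 11.02 in old follicles (-0.19, adjusted p = 0.055). Xbp1 itself read 10.14 to 10.35 in young and 10.37 to 10.52 in old follicles (0.17, adjusted p = 0.15), and Atf6 overlapped (0.13). These arrays do not report the splicing of Xbp1 or any protein.

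Dimmer probe sets of the same genes differed more between the ages, with drops past a fold of 2 in Hsp90aa1, Hsph1, Hspa4, Cct3 and Dnajb6 and a rise past it in Hspa8. Of the 45 measured members, 36 had several probe sets, which left 83 dimmer ones, tested in a second limma fit over 34945 probe sets. At a fold of 2, 5 of the 83 (6.02%) were lower and 1 (1.20%) higher, against 1.01% and 0.281% of all 16752 dimmer probe sets. Without probe sets whose suffix marks shared probes, 2 member probe sets were lower at a fold of 2. Whatever the fold, 20 (24.1%) were lower and 5 (6.02%) higher, against 15.4% and 8.54%. The median log2 fold change of dimmer probe sets was -0.062 for members and -0.016 for all genes, and 62.7% of the members' dimmer probe sets had a lower fold change than their gene's brightest one, against 51.9% over all genes. A probe set can be dimmer because it reads another isoform, lies farther from the 3' end or binds less well, and the positions of these probe sets along the transcripts were not analysed here.

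**Figure D3:**
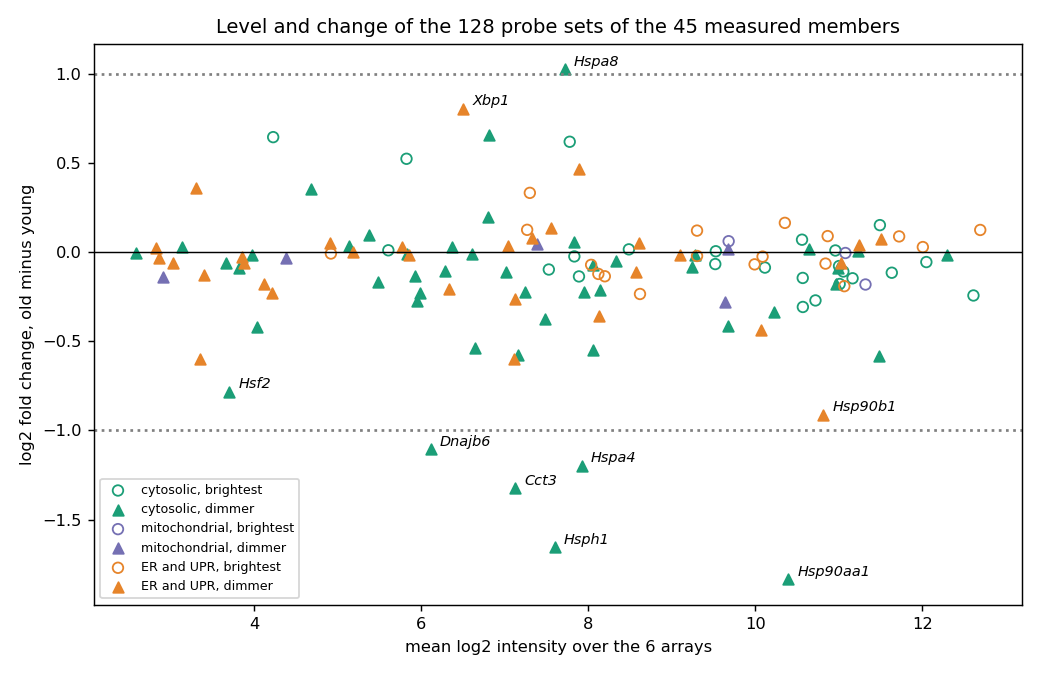
Mean log2 intensity over the 6 arrays (horizontal axis) and log2 fold change, old minus young (vertical axis), of the 128 probe sets of the 45 measured members; open circles are each gene's brightest probe set and filled triangles the dimmer ones, coloured by compartment, with dotted lines at a fold of 2. The brightest probe sets stay between -0.31 and 0.65, while dimmer ones of Hsp90aa1, Hsph1, Cct3, Hspa4 and Dnajb6 fall past the lower line and 1 of Hspa8 past the upper line.

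The steepest drop among the 128 probe sets was in Hsp90aa1, where the third brightest probe set (1426645_at) read 11.37, 11.32 and 11.25 in young follicles and 9.46, 9.50 and 9.47 in old follicles. Its log2 fold change was -1.84 ± 0.059 (SE, adjusted p = 3.8e-06). The second (1437497_a_at) read 11.75, 11.81 and 11.78 in young and 11.20, 11.16 and 11.23 in old follicles (-0.58), so on the 3 young arrays it was brighter than the probe set that stood for the gene. The 3 probe sets thus gave -0.11, -0.58 and -1.84 for a single gene at similar levels in young follicles. Hsph1 fell at both of its probe sets, with 8.43, 8.38 and 8.49 against 6.78, 6.77 and 6.78 at the dimmer one (1423566_a_at, -1.66), and Dnajb6 at 1429776_a_at, with 6.69, 6.74 and 6.57 against 5.54, 5.64 and 5.51 (-1.10). Hspa4 fell at 1416147_at, from 8.57, 8.47 and 8.51 to 7.39, 7.34 and 7.24 (-1.20), while its brightest did not pass. A further one (1435194_at, -0.21, adjusted p = 0.047) passed in only 3 of 12 alternatives, with an adjusted p of 0.16 after quantile normalization. Cct3 fell at 1449645_s_at, from 7.87, 7.80 and 7.70 to 6.45, 6.45 and 6.49 (-1.32), whereas its brightest was higher in every old sample. The suffixes _s_at and _x_at mark probes that other transcripts may share, and _a_at marks probes shared by several transcripts of 1 gene.

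Hspa8 had the opposite pattern. Its dimmest probe set (1431182_at) read 7.22, 7.22 and 7.18 in young follicles and 8.13, 8.28 and 8.30 in old follicles, a log2 fold change of 1.03 ± 0.067 (SE, adjusted p = 9.4e-05), while the brightest (1420623_x_at) was lower. Without old replicate 3 it fell short of a fold of 2 (0.9965 on the log2 scale). No direction common to all its probe sets can be given for Hspa8. In the ER, Hsp90b1 read 11.34, 11.19 and 11.28 in young and 10.41, 10.27 and 10.40 in old follicles at 1438040_a_at (-0.91), although its brightest stood at 0.090. Xbp1 had a probe set that rose (1420012_at, 0.81), with 6.12, 6.21 and 5.97 against 6.97, 6.80 and 6.96, and one that fell (1420886_a_at, -0.44), with 10.27, 10.32 and 10.27 against 9.86, 9.83 and 9.86. Hspa1b fell at both dimmer probe sets (-0.37 and -0.54), and its brightest lay below the young values in every old sample as well. Further dimmer probe sets fell in Canx (-0.60), Dnajc3 (-0.60 and -0.36), Hspa4l (-0.57), Dnaja2 (-0.55), Cct4 (-0.42), Dnaja1 (-0.33) and Hspa9 (-0.28). Of these, 1449373_at of Dnajc3 (-0.60) and 1415868_at of Cct4 lay below the array medians. Their means were 3.64 and 4.24 in young and 3.05 and 3.82 in old follicles. The call on Cct4 was lost without old replicate 2 (adjusted p = 0.053), and that on Hspa9 without young replicate 2 or old replicate 3 (0.056 and 0.060). Those of Atf4 (0.47) and Hspb8 (0.36) passed as higher, but Atf4 lost the call without young replicate 2 or 3 or old replicate 1 or 3 (adjusted p = 0.061, 0.070, 0.069 and 0.075). For Hspb8 1417013_at the call held in 4 of 11 alternatives, and it was lost with quantile and cyclic loess normalization (adjusted p = 0.056 and 0.060) and without young replicate 1, 2 or 3 or old replicate 2 or 3 (0.075, 0.061, 0.11, 0.078 and 0.070). The difference between both ends of the Gapdh and beta-actin transcripts, 1.04 and 1.05 wider in old follicles, moved with these values, and its part in them was not tested.

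**Figure D4:**
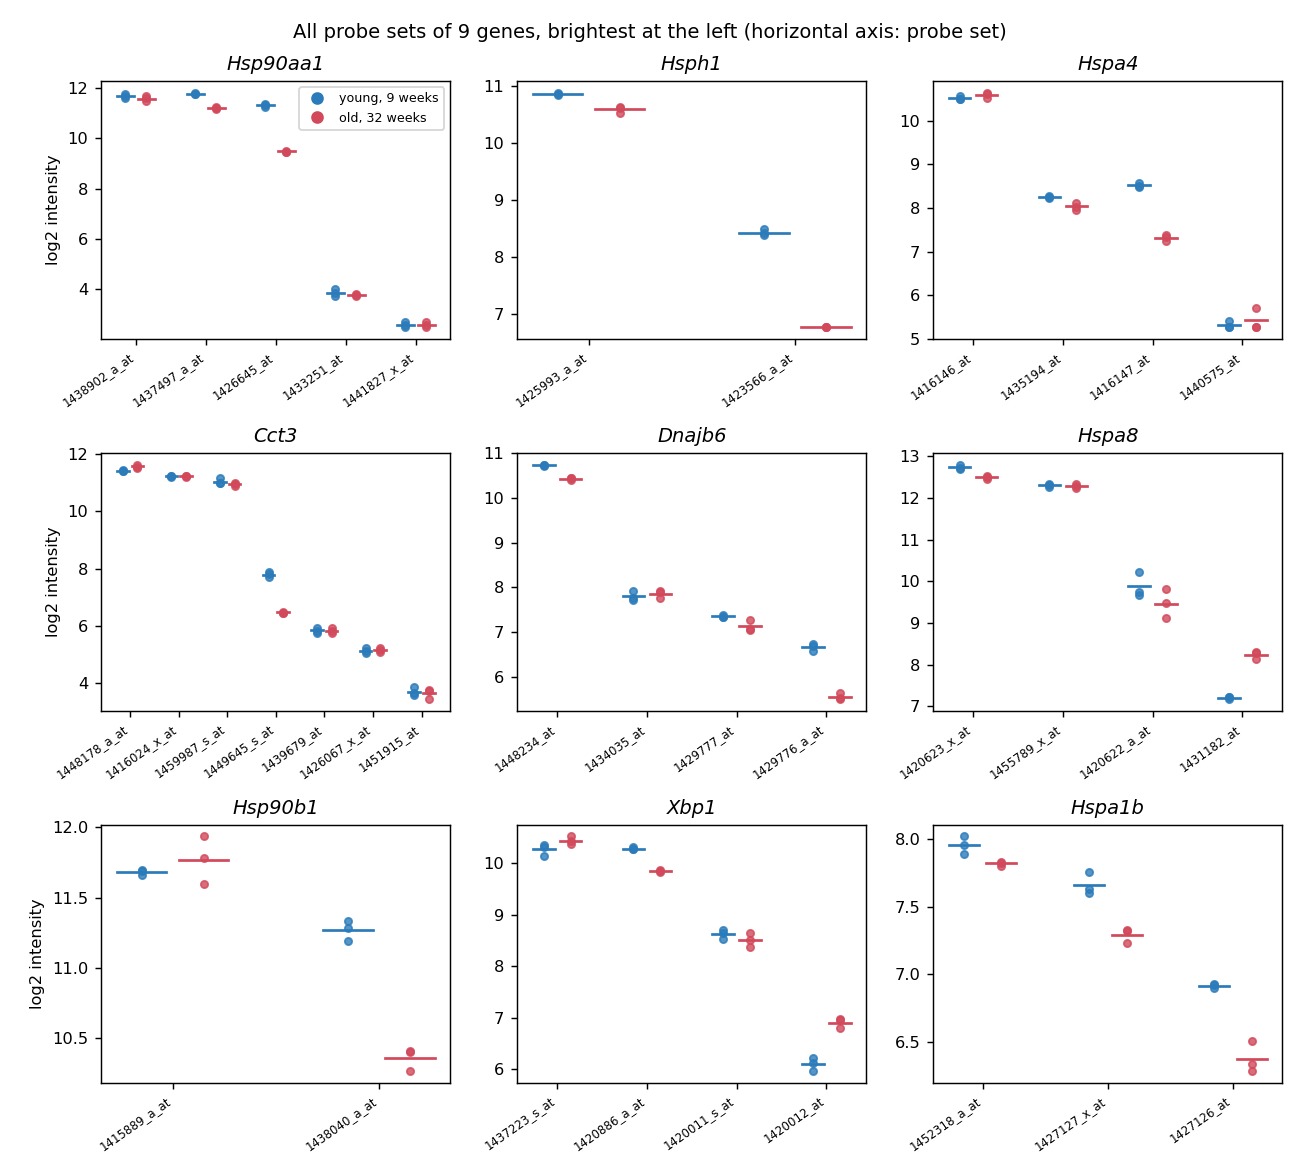
Log2 intensity (vertical axis, its range set per gene) of every probe set of 9 member genes, ordered from the brightest at the left (horizontal axis), with 1 point per array and lines at the means of the 3 young and 3 old samples. In Hsp90aa1, Hsph1, Hspa4, Cct3, Dnajb6 and Hsp90b1 the wide gaps between young and old points sit at dimmer probe sets, and in Hspa8 and Xbp1 the probe sets differ in direction.

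Further genes of these pathways numbered 74 and were listed for their known roles. Of the 72 measured, 0 passed a fold of 2, 6 (8.33%) were higher and 9 (12.5%) lower whatever the fold, against 10.1% and 13.3% of all genes, and 57 did not pass. Their median was -0.032, and the groups did not overlap for 34 (47.2%), against 42.5% of all genes, so the counts of calls lay under the background. In the cytosol, Sugt1, an HSP90 cochaperone, was lower (-0.42, adjusted p = 0.0035), as was Bag2, an HSP70 cochaperone (-0.44, adjusted p = 0.0053). Of the prefoldin subunits, which hand actin and tubulin to CCT, Pfdn4 was lower (-0.40, adjusted p = 0.0020) and Pfdn6 higher (0.37, adjusted p = 0.0037). In mitochondria the proteases Yme1l1 (-0.35, adjusted p = 0.011) and Clpx (-0.25, adjusted p = 0.021) were lower. In the UPR, Nupr1, a stress-induced chromatin protein, was higher (0.60, adjusted p = 0.00065), as was Ppp1r15a (GADD34), which removes the phosphate that PERK puts on eIF2alpha and is a target of CHOP (0.42, adjusted p = 0.0050). Other targets of this branch did not pass, Asns at 0.044, Chac1 at 0.056 and Sesn2 at 0.022, and Atf5 was lower (-0.21, adjusted p = 0.029).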

How the data were processed

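RNA of secondary follicles was measured on 6 arrays, 3 young and 3 old. The authors processed the scans with RMA (version not given in the sources used here). They deposited linear intensity values. The plan was written for log2 data, and the deposited intensity was therefore turned into log2 without a pseudocount. Probe sets were named from the array's annotation. Of these, 34945 had 1 symbol, 932 had several and 9211 were not listed, and these last 2 kinds entered no test, nor did 64 control probe sets. Symbols were updated through RefSeq (GRCm38.p6), which matched 99.1% of gene IDs.

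The brightest probe set by its mean on all arrays stood for a gene. Old and young samples were compared by the two-sided moderated test of limma (version 3.58.1, R version 4.3.3, functions lmFit and eBayes). P-values were adjusted by Benjamini-Hochberg across 18193 genes, and all 34945 probe sets in a second fit. The fold minimum of 2 and the cutoff of 0.05 are the paper's, which set 0.05 on the q-value of SAM. Here 0.05 was set on the adjusted p of limma. The scripts were tested on simulated data, where the share of false calls at any fold exceeded the nominal level, so calls near the threshold (Hspd1, Dnajb9, Hspa8) are less sure. The members, the lists and the markers were chosen with earlier results of these data known. Per-sample values are given for members past a fold of 2 at any probe set and for up to 4 members per role with the smallest p. Members whose dimmer probe set passed are named too, as are up to 2 other pathway genes per list. Asns, Chac1, Sesn2, Atf5, Dnajb2, Dnajb5 and Dnajc7 were named after their values were seen. Array number limits precision. Alternatives were other scalings, other rules for probe sets, a filter at a mean log2 of 5, other priors and array weights, significance analysis of microarrays (SAM) with all 20 label assignments, a replicate block, a fold of 1.5 and leaving out each sample.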

Additional observations from a re-analysis of the deposited data

How the results depend on the processing

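Hspb1, Ddit3, Dnajb6 and Hsph1 kept their direction and stayed past the threshold under every alternative that gave them a value (13, 14, 14 and 13). Without the probe sets whose suffix marks shared probes, 1 member was higher at a fold of 2 (Hspa8), 1 was lower (Hsp90aa1), 2 member probe sets were lower, and the ER and UPR median was -0.065. Under a fold of 1.5, 2 members were higher (Hspb1 and Hsf2), and 5 member probe sets were higher and 9 lower. Members lower whatever the fold, 5 in the report, numbered 13 with the mean of all probe sets, 9 with the filter at a mean log2 of 5, 10 with a trended and robust prior (8 were then higher), 2 by SAM, and 9 with the probe set brightest on the young arrays, an alternative chosen after seeing the data. They numbered 3 with the replicate block, although same-numbered samples did not deviate together (r of 0.053, -0.0003 and 0.043), and at the brightest probe sets the block changed the call of no member other than Dnajb9 (adjusted p = 0.063) and Hspd1 (adjusted p = 0.082). Leaving out a sample gave 2 to 4 lower members and 0 to 1 probe sets higher at a fold of 2. The cytosolic median, -0.071, was -0.020 and -0.032 with quantile and cyclic loess normalization, -0.087 with array weights, -0.091 with the mean of probe sets, and -0.089 to -0.059 without 1 sample. The ER and UPR median, -0.013, was 0.021, 0.028, 0.018 and -0.041 under the same 4, and -0.029 to 0.025 without 1 sample. With the filter at a mean log2 of 5, the cytosolic median was -0.076 and the ER and UPR median -0.020, against -0.047 over all genes kept. The mitochondrial median, -0.0030, was -0.067 with the mean of probe sets and -0.18 with the probe set brightest on the young arrays. The mean of probe sets turned Hsf2 (-0.067), Hspa8 (0.089), Hspa4 (-0.31) and Cct3 (-0.18), leaving out shared probe sets turned Hspa8 (1.03), and the probe set brightest on the young arrays turned Hsf2 (-0.78), Xbp1 (-0.44) and Hspa9 (-0.28). These turns follow from the probe sets read, and the cause of their difference was not tested. The precision allows small steps to be seen, but 3 arrays a group cannot go below p = 0.1 in a permutation test.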
